A study of Mus musculus with 16 samples.

Results

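Genes of newborn neurons, 8 in number, were followed through the hippocampus of mice in which the transcription factor CREB was either activated or inhibited. They were Dcx, Sox4, Sox11, Neurod1, Eomes, Igfbpl1, Tubb3 and Dpysl3, and every probe set that the platform annotation assigns to one of these gene symbols was taken, whatever its signal. This gave 28 probe sets of 8 genes, of the 45101 probe sets on the array. Of these, 20 probe sets of 7 genes passed the filter on low signal and were tested, and 8 did not pass.

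RNA was hybridised to 16 Affymetrix Mouse Genome 430 2.0 arrays, and each array held the hippocampal RNA of a pool of 3 to 4 mice of the same age, sex and genotype on the C57BL/6J strain. VP16-CREB, a fusion of CREB with the viral VP16 activation domain that switches on CREB targets without an upstream signal, was studied in tetO-VP16-CREB mice raised with doxycycline (dox) and then taken off it to induce the transgene. The late VP16-CREB group had been off dox for 3 weeks and was 6 weeks old (3 pools), against wild-type littermates with the same dox history and age (3 pools). The early VP16-CREB group had been off dox for 1 week and was 3 weeks old (2 pools), against wild-type littermates of the same age and dox history (2 pools). A-CREB, a dominant negative protein that binds CREB and keeps it from DNA, was studied in TetO-A-CREB-95 mice of 6 weeks (3 pools) against wild-type littermates of the same age (3 pools). The series design calls the transgenic mice bitransgenic, and the labels name the tetO responder but not the driver; published tetO mice of this kind use a tTA driver under the CaMKIIα promoter, which is active in forebrain excitatory neurons. The early A-CREB arrays were not analysed here.

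In the adult dentate gyrus, radial glia-like stem cells give rise to dividing progenitors, which become immature granule neurons and then mature ones. Eomes (Tbr2) is a transcription factor of intermediate progenitors, Neurod1 a bHLH factor needed for the survival and maturation of newborn granule neurons, and Sox4 and Sox11 are SoxC factors of committed neuroblasts. Dcx (doublecortin), Dpysl3 (CRMP4) and Tubb3 (class III β-tubulin) act on or form the cytoskeleton of the growing neuron, and Igfbpl1 is a secreted IGF-binding-like protein used as a marker of neuroblasts. CREB is active in immature granule neurons and has been linked to their survival and to the growth of their dendrites.

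In the GRCm38.p6 annotation of RefSeq, Dcx lies at chrX:143855842-143933396, Sox4 at chr13:28948919-28953699, Sox11 at chr12:27334268-27342718 and Neurod1 at chr2:79452637-79456636. Eomes lies at chr9:118478186-118486132, Igfbpl1 at chr4:45809507-45826827, Tubb3 at chr8:123411553-123422015 and Dpysl3 at chr18:43320979-43438286. These are the spans of the genes; the positions of the probes within them were not used here.

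Values are MAS5 intensities on a linear scale. A probe set was tested if it exceeded 99.1, the median of all values, on at least 2 arrays. Differences are given on the log2(intensity + 10) scale from 1 limma model over all 16 arrays, with the 95% interval of the moderated test. Calls are adjusted p-values below 0.05, with the Benjamini-Hochberg procedure run over all 27044 probe sets tested. Probe sets of a gene share a transcript and are not independent of each other. Counts of members out of 20, and of members called, are counts of probe sets and not of genes. Nothing in the labels ties a pool to a batch. The p-values measure a spread between pools within groups, estimated over all 16 arrays and so also from pools outside the comparison. In comparisons between ages or lines they do not cover differences between the sets of arrays described below. In whole hippocampus, fewer cells of a type and less RNA per cell cannot be told apart.

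The 6 arrays of the late VP16-CREB comparison stood apart from the other 10. Their median intensity was 118.9 to 129.3, against 80.0 to 93.2 on the early VP16-CREB arrays and 75.0 to 89.7 on the A-CREB arrays. Arrays of a group correlated at 0.954 to 0.985 over 14 pairs, and the late arrays correlated with the others at 0.885 to 0.933 over 60 pairs. Transgenic and control pools of a comparison lay in the same set of arrays. Comparisons between ages or between lines that used late arrays crossed from the late set to the other 10. The age comparison with A-CREB line controls did not cross, as both its groups were among the other 10. Early VP16-CREB arrays correlated with A-CREB arrays at 0.944 to 0.977 over 24 pairs. The 3′/5′ signal ratio of actin was 1.44 to 1.61 in late VP16-CREB pools and 1.36 to 1.56 in their controls, 1.40 to 1.59 in early VP16-CREB pools and 1.47 to 2.00 in their controls, and 1.40 to 2.48 in A-CREB pools and 1.37 to 1.98 in their controls. Genes of mature granule neurons, the principal cells of the dentate gyrus, passed the filter (8 of 8 genes on a list chosen for them), as did 6 of 6 pan-neuronal genes. The filter does not require signal in every group, and 1 of the 8, Plk5, averaged 69.6 in late VP16-CREB pools.

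**Figure D1:**
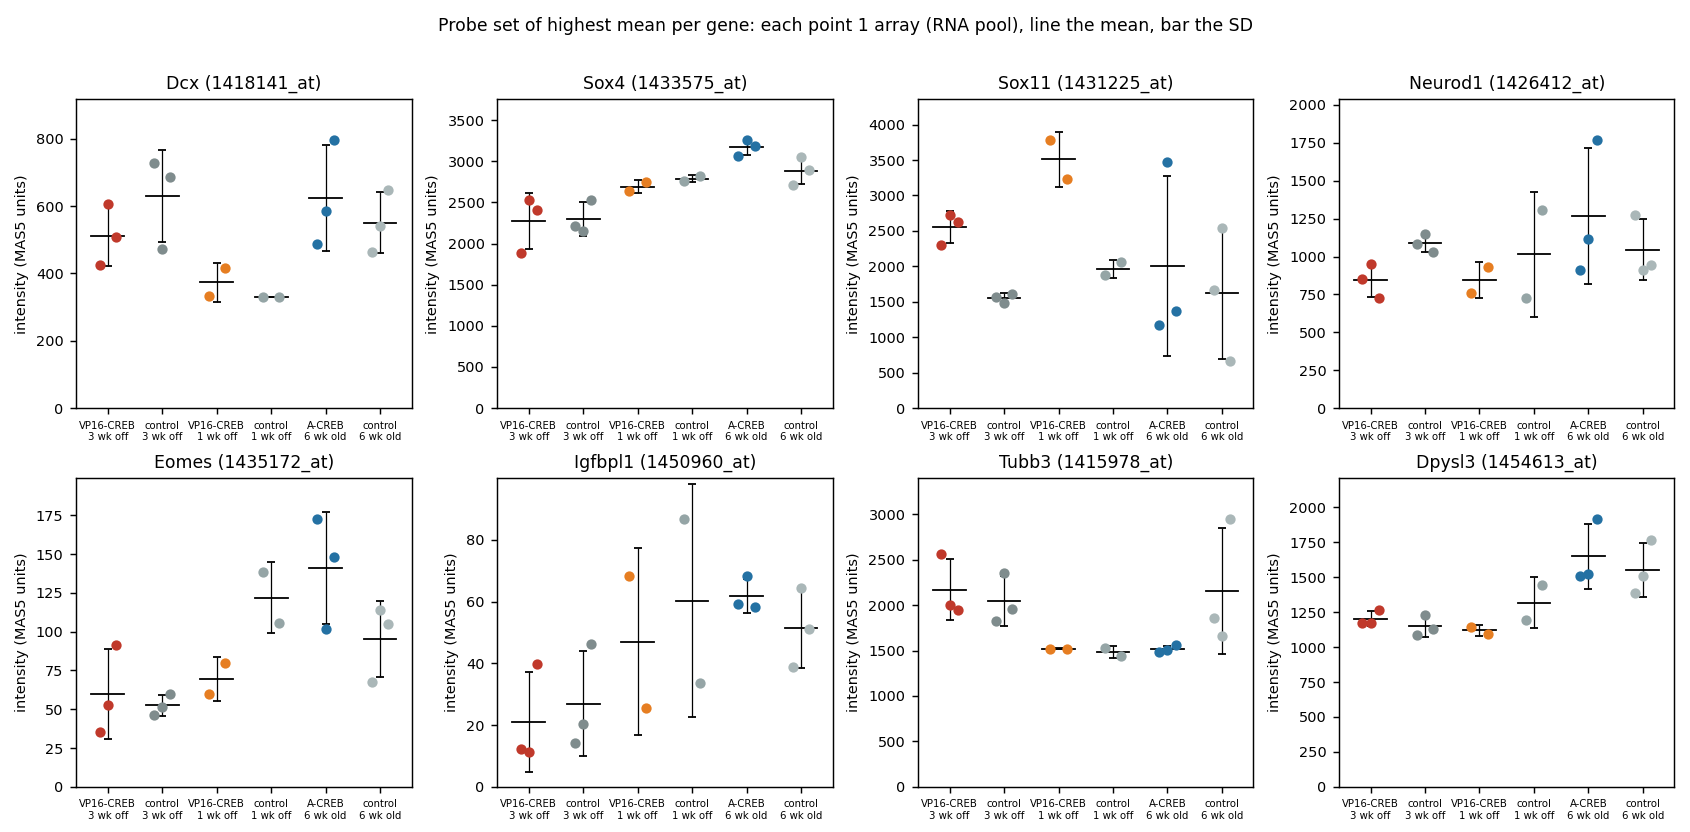
MAS5 intensity (y axis, linear, from 0) of the probe set of highest mean of each gene in the 6 groups (x axis, each transgenic group left of its control); points are arrays, lines the mean and bars the SD. Igfbpl1 stays below 99.1 on all 16 arrays, and the Sox11 pools of both VP16-CREB groups lie above those of their controls.

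No immature neuron gene was called after 3 weeks of VP16-CREB. Sox11 gave the highest differences, with all 6 of its probe sets above the control mean, and both Neurod1 probe sets were below it, but no adjusted p was under 0.119. Of the 20 probe sets tested, 0 were called by limma, where 3.93% of all probe sets were called (3.28% higher and 0.651% lower). At an unadjusted p under 0.05, 3 members were higher and 1 lower, where 8.96% of all probe sets were higher and 4.51% lower. The pools of the 2 groups did not overlap for 5 probe sets that were higher and 2 that were lower, where 14.9% and 12.8% of all probe sets were so. The median difference of the members was 0.09, against -0.01 over all probe sets.

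Sox11, the SoxC factor of neuroblasts, had 700, 512 and 570 intensity units in late VP16-CREB pools with probe set 1429051_s_at, against 381, 388 and 364 in controls. The lowest transgenic pool was above the highest control pool. The means were 594 ± 96.3 in VP16-CREB pools and 378 ± 12 in controls (SD, n = 3 each). The difference was 0.63 (95% interval 0.20 to 1.05), with an unadjusted p of 0.00716 and a limma adjusted p of 0.119. With probe set 1429372_at, the values were 488, 482 and 671 in VP16-CREB pools, against 345, 384 and 351 in controls, a difference of 0.58 (0.16 to 0.99, limma adjusted p = 0.142). With 1431225_at, the brightest of the 6, they were 2298, 2729 and 2621 in VP16-CREB pools, against 1568, 1489 and 1613 in controls, a difference of 0.71 (-0.21 to 1.62, limma adjusted p = 0.557). The model takes 1 spread per probe set over all 16 arrays. For 1431225_at the SD was 225 and 62.9 in these late VP16-CREB and control pools. It was 388 and 129 in the early pools and 1274 and 936 in the A-CREB comparison. With only the 6 late arrays in the fit, its limma adjusted p was 0.0184. The pools did not overlap for any of these 3 probe sets. They also did not overlap for 1453002_at, where the difference was 0.62 (limma adjusted p = 0.398), and they did overlap for 1453125_at and 1436790_a_at, at 0.55 and 0.62.

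Neurod1, the bHLH factor of newborn granule neurons, lay below its controls in the same pools. With probe set 1426413_at, it had 680, 602 and 624 units in late VP16-CREB pools, against 996, 1049 and 849 in controls, and the highest transgenic pool was below the lowest control pool. The means were 635 ± 40.5 in VP16-CREB pools and 965 ± 104 in controls (SD, n = 3 each), a difference of -0.59 (-1.14 to -0.05, limma adjusted p = 0.312). With 1426412_at, it had 850, 950 and 726 units in VP16-CREB pools, against 1079, 1149 and 1031 in controls, again without overlap, and the difference was -0.37 (-0.92 to 0.18, limma adjusted p = 0.639). The 2 Neurod1 probe sets and 4 of the 6 Sox11 probe sets thus separated the late VP16-CREB pools from their controls, in opposite directions. Of all probe sets, 14.9% were wholly higher and 12.8% wholly lower in these pools. None of these Sox11 and Neurod1 probe sets reached the threshold. Other settings of the test did call some of them in late pools: with array weights 4 were called (Sox11 1429051_s_at, 1429372_at and 1453002_at, and Neurod1 1426413_at), and with only the 6 arrays compared in the fit 2 were called (Sox11 1431225_at and Neurod1 1426413_at). The remaining settings called none of them. With 1 array left out, 0 members were called in late pools in each of 6 fits.

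The other members gave smaller differences in late pools than Sox11 did. Dcx, the microtubule-associated protein that is the usual marker of immature neurons, had 424, 605 and 508 units in late VP16-CREB pools with probe set 1418141_at, against 729, 473 and 687 in controls, and the groups overlapped. The difference was -0.28 (-0.76 to 0.19, limma adjusted p = 0.705), and it was -0.12 (-0.45 to 0.22) for 1418139_at. Sox4 with 1433575_at had 1887, 2525 and 2406 units in VP16-CREB pools, against 2213, 2153 and 2533 in controls, a difference of -0.02 (-0.32 to 0.27). Of its 5 tested probe sets only 1419156_at separated the groups, with 248, 250 and 280 units in VP16-CREB pools, against 225, 189 and 160 in controls, a difference of 0.43 (0.00 to 0.86, limma adjusted p = 0.367). Tubb3 differed by 0.08 (-0.34 to 0.51) and Eomes by 0.09 (-0.52 to 0.69), and the 3 Dpysl3 probe sets by 0.07 to 0.15, all with overlapping pools.

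**Figure D2:**
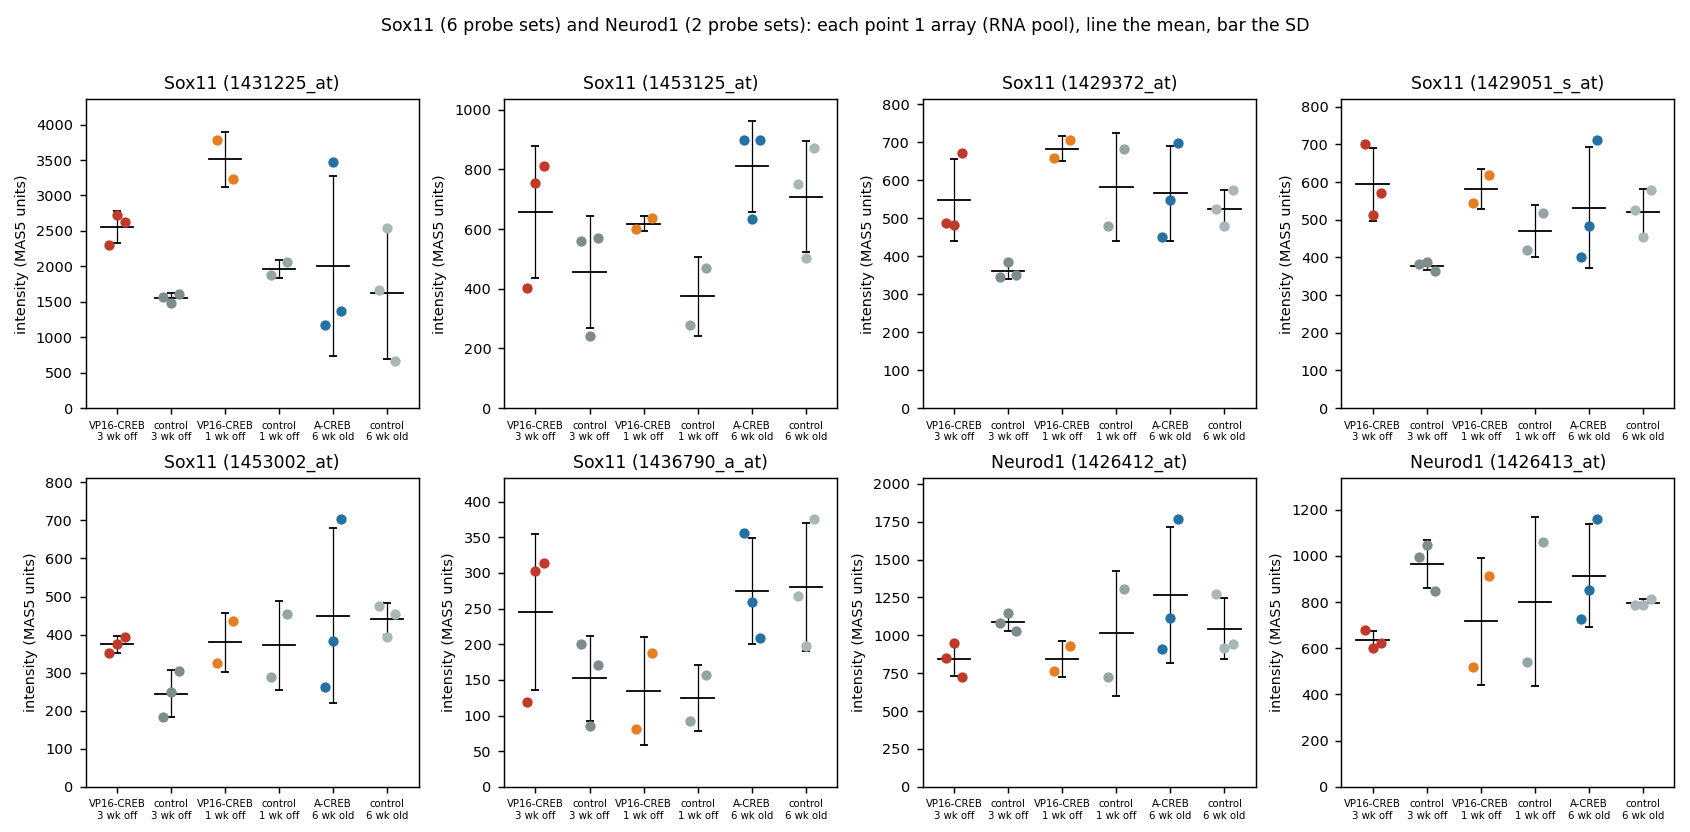
MAS5 intensity (y axis, linear, from 0) of the 6 Sox11 and 2 Neurod1 probe sets in the 6 groups (x axis, each transgenic group left of its control); points are arrays, lines the mean and bars the SD. In the late VP16-CREB pools 4 of 6 Sox11 probe sets lie wholly above and both Neurod1 probe sets wholly below the controls.

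After 1 week of VP16-CREB, no member was called. The mean of Sox11 was above that of the controls with all 6 probe sets, though the pools were separate for only 3 of them, and Eomes lay below its controls. Of 20 tested, 0 were called by limma, where 0.237% of all probe sets were called (0.218% higher and 0.0185% lower), and 0 passed an unadjusted p under 0.05, where 5.27% of all probe sets did. The pools did not overlap for 5 probe sets that were higher and 3 that were lower, where 15.7% and 12.9% of all probe sets were so. The median difference of the members was 0.06, against 0.02 over all probe sets.

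Sox11 with probe set 1431225_at had 3786 and 3237 units in early VP16-CREB pools, against 1875 and 2058 in controls, a difference of 0.83 (-0.29 to 1.95). The 2 transgenic pools were above both controls. With 1453125_at, it had 600 and 637 units in VP16-CREB pools, against 280 and 469 in controls, and the difference was 0.75 (-0.18 to 1.69). With 1429051_s_at, it was 0.31 (-0.22 to 0.83), again without overlap, and the other 3 probe sets overlapped, at 0.04 to 0.25. The lowest unadjusted p of the 6 was 0.105.

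Eomes, the factor of intermediate progenitors, had 59.6 and 79.8 units in early VP16-CREB pools with probe set 1435172_at, against 138 and 106 in controls. Both transgenic pools lay below both controls, and below the filter's 99.1, and the difference was -0.73 (-1.47 to 0.02), with an unadjusted p of 0.0548 and a limma adjusted p of 0.963. The probe set passed the filter through 7 of the 16 arrays. The Dcx probe set 1418141_at had 332 and 415 units in VP16-CREB pools, against 330 and 329 in controls, a difference of 0.16 (-0.42 to 0.74). Neurod1 differed by -0.20 (1426412_at) and -0.14 (1426413_at), and its 2 controls alone lay at 723 and 1306 and at 543 and 1060. Tubb3 differed by 0.04 (-0.48 to 0.55).

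The difference between the late and the early VP16-CREB effects was tested directly, and 0 of the 20 members were called by limma, where 0.0037% of all probe sets were called (1 probe set). None passed an unadjusted p under 0.05, where 4.99% of all probe sets did. The estimate, late effect minus early effect, was 0.32 (-0.35 to 1.00) for Sox11 1429051_s_at, -0.46 (-1.32 to 0.41) for Neurod1 1426413_at and 0.81 (-0.15 to 1.78) for Eomes. All 3 intervals include 0.

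A-CREB left the immature neuron genes without a call, as it did every other probe set. Tubb3 was the only member whose pools were wholly below those of the controls. It had 1482, 1504 and 1556 units in A-CREB pools, against 1862, 1660 and 2953 in controls, a difference of -0.46 (-0.88 to -0.04), with an unadjusted p of 0.0341 and a limma adjusted p of 1.00. Control pool 3 was well above the other two. Of 20 members, 0 were called by limma, where 0% of all probe sets were called and 4.33% passed an unadjusted p under 0.05 (1171 probe sets). Unadjusted, 0 members were higher and 1, Tubb3, was lower, where 2.29% and 2.04% of all probe sets were so. The pools did not overlap for 1 member that was higher and 1 that was lower, where 3.54% and 3.28% of all probe sets were so, and the member that was higher was Sox4 with 1433575_at, with 3066, 3263 and 3184 units in A-CREB pools, against 2717, 3048 and 2890 in controls, a difference of 0.14 (-0.16 to 0.43).

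Dcx with 1418141_at had 489, 585 and 797 units in A-CREB pools, against 465, 542 and 646 in controls, a difference of 0.16 (-0.31 to 0.63), and with 1418139_at it was 0.08 (-0.25 to 0.42). Sox11 with 1431225_at had 1175, 3473 and 1370 units in A-CREB pools, against 1661, 2537 and 666 in controls. The spread within each group was larger than the difference of 0.33 (-0.58 to 1.24). The other 5 Sox11 probe sets differed by -0.08 to 0.21, and Eomes by 0.52 (-0.09 to 1.13) with pools that overlapped at 102 to 173 in A-CREB and 67.6 to 114 in controls. Neurod1 differed by 0.24 and 0.17, with A-CREB pool 3 the highest at 1771 and 1162 units. The difference between the late VP16-CREB effect and the A-CREB effect was also tested, and 0 of 20 members were called by limma, where 0.887% of all probe sets were (240 probe sets). Unadjusted, 1 member was higher and 0 lower, where 6.01% and 2.68% of all probe sets were so (8.69% in all). Sox11 1429051_s_at gave 0.63 (0.02 to 1.23, limma adjusted p = 0.547) and Neurod1 1426413_at gave -0.76 (-1.53 to 0.01, limma adjusted p = 0.585).

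**Figure D3:**
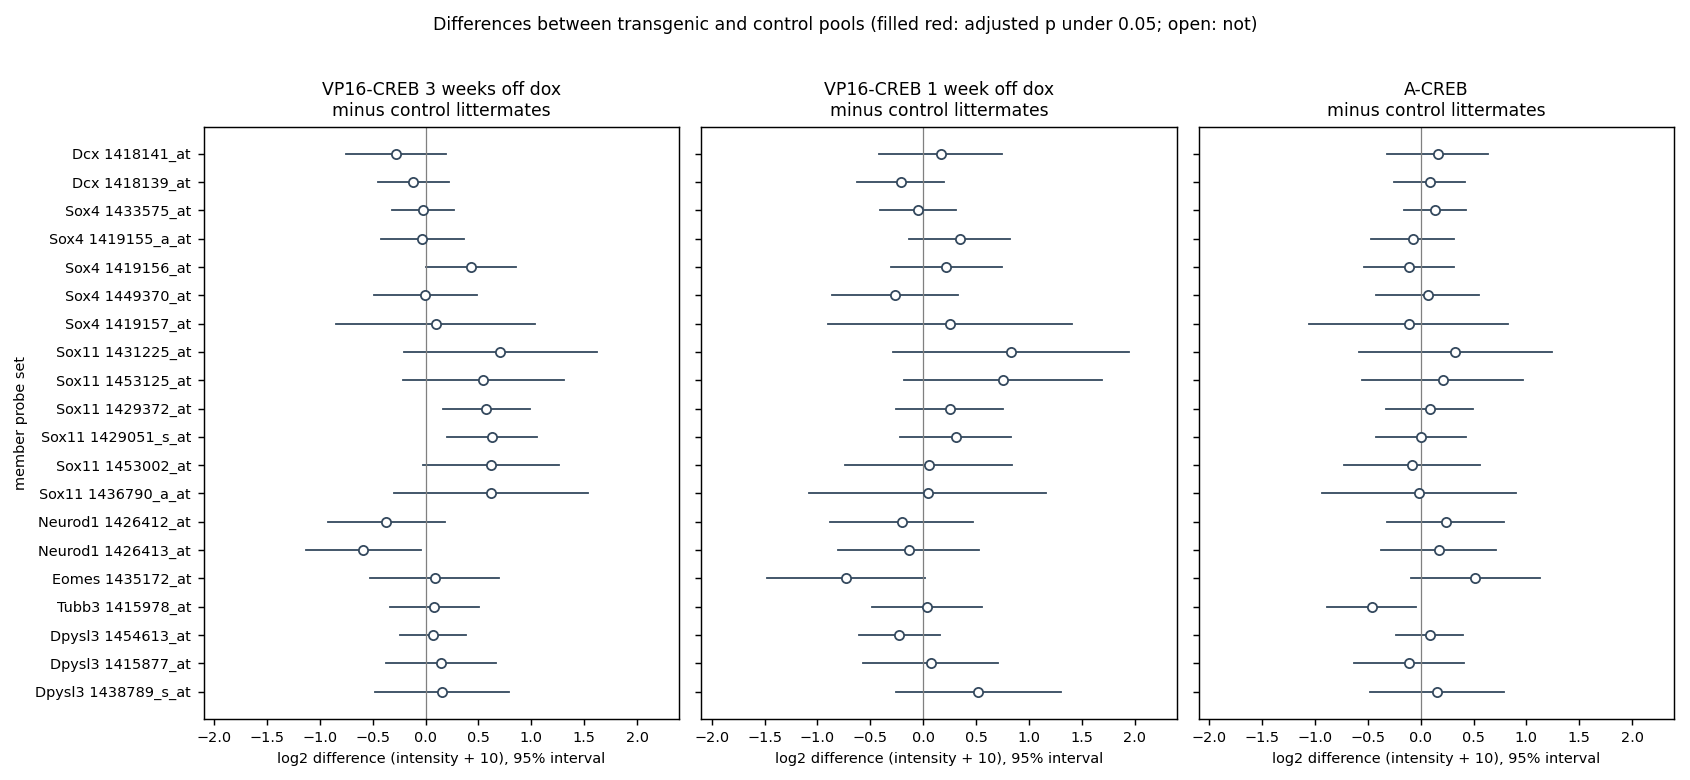
Log2 differences (x axis, log2(intensity + 10) scale) of the 20 tested probe sets (y axis) with 95% intervals, for late VP16-CREB, early VP16-CREB and A-CREB pools, each minus its control littermates. All points are open, since no member was called in any of the 3 comparisons; the 6 Sox11 points lie right of 0 in both VP16-CREB panels.

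Around the members, the other stages of the lineage and other cell types were followed with gene lists chosen with earlier results of these data known. Of 27 measured genes on a list of other immature neuron genes (30 on the list), 0 were called in late VP16-CREB, early VP16-CREB or A-CREB pools. Their median differences were 0.00, -0.01 and -0.00, and those over all probe sets were -0.01, 0.02 and 0.00. Among the brightest, Stmn1 (stathmin, which destabilises microtubules) differed by -0.16 and Nnat (neuronatin) by 0.22 in late pools. Genes of mature granule neurons did fall in the late pools. Of 8 measured, 7 were called lower, among them C1ql2 (a synaptic C1q-like protein) at -1.78, Dsp (desmoplakin) at -1.77, Plk5 at -1.61 and Lct at -1.56. Their summed intensity was 4987 to 6242 in late VP16-CREB pools and 12698 to 12796 in controls. None of the 8 was called in early pools, where the sum was 9783 to 9849 in VP16-CREB and 12040 to 14169 in controls, nor in A-CREB pools. The Plk5 call was lost without any 1 of the 3 controls or of VP16-CREB pools 1 and 3, at a limma adjusted p of 0.0608 to 0.130.

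Dividing progenitors had 9 measured genes of 12 on the list. Their median differences were 0.71 in late, 0.86 in early and 0.14 in A-CREB pools. Those over all probe sets were -0.01, 0.02 and 0.00. Which cells of the whole hippocampus expressed these genes was not tested. Of all probe sets, 3.28% were called higher in late pools and 0.218% in early pools. In late pools 2 rose, Pcna (the DNA polymerase clamp) at 0.89 with a limma adjusted p of 0.00691 and Cdk1 (the mitotic kinase) at 0.97 with 0.0242, and in early pools 2 rose, Top2a (topoisomerase II alpha) at 1.78 with 0.00584 and Cdk1 at 1.52 with 0.0402. Pcna averaged 7180 ± 149 units in late VP16-CREB pools and 3876 ± 154 in controls (SD, n = 3 each). Its call held under all 16 alternatives. The late Cdk1 call was lost without control 1, control 3, VP16-CREB pool 2 or pool 3, at 0.0886 to 0.126. The early Cdk1 call was lost without any 1 of the 4 pools, at 0.126 to 0.225, and the early Top2a call without control 2 or either VP16-CREB pool, at 0.0511 to 0.0602. With arrays centred on their median, the limma adjusted p of Cdk1 was 0.0530 in late pools and 0.0758 in early pools. Radial glia-like stem cell genes had 2 calls of 11 measured in late pools, the intermediate filaments Gfap at 2.76 and Vim at 2.17, which reactive astrocytes also express, and 1 in early pools, Gfap at 1.80. The early Gfap call was lost without control 2 or either VP16-CREB pool, at 0.106 to 0.177. With the replicate number as a block, the early calls of Gfap and Cdk1 were lost, at limma adjusted p-values of 0.0856 and 0.0663. With only the 4 early arrays in the fit, those of Gfap, Cdk1 and Top2a were lost, at 0.337, 0.302 and 0.246. None of these genes was called in A-CREB pools.

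Other cell types moved with the late VP16-CREB comparison. Of 8 microglia genes, 7 rose, among them Cd68 (a lysosomal protein of phagocytes) at 2.73 and Tyrobp at 2.68, and the list's summed intensity was 33679 to 39339 in VP16-CREB pools and 9622 to 9774 in controls. No marker was at 0. Of 6 astrocyte genes 2 rose, Aqp4 at 1.13 and Mlc1 at 0.93, and of 6 oligodendrocyte precursor genes and 5 measured genes of myelinating oligodendrocytes 0 were called. The Aqp4 call was lost without VP16-CREB pool 3, at 0.0594. In early pools 1 microglia gene rose, Cd68 at 1.84, and the sum was 17425 to 20175 in VP16-CREB pools and 9515 to 13851 in controls. The Cd68 call was lost without control 2 or either VP16-CREB pool, at 0.0941 to 0.136, with the replicate block, at 0.0687, and with only the 4 early arrays in the fit, at 0.278. In A-CREB pools 0 were called, and the sum was 11575 to 15701 in A-CREB and 10010 to 12359 in controls. Choroid plexus genes (6 on the list) had no call in any of the 3 comparisons, and their sum was 6957 to 26747 in late VP16-CREB pools and 15187 to 37300 in controls. Pan-neuronal genes and those of striatum and thalamus had 0 calls. The part of these markers in the members' values was not tested.

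**Figure D4:**
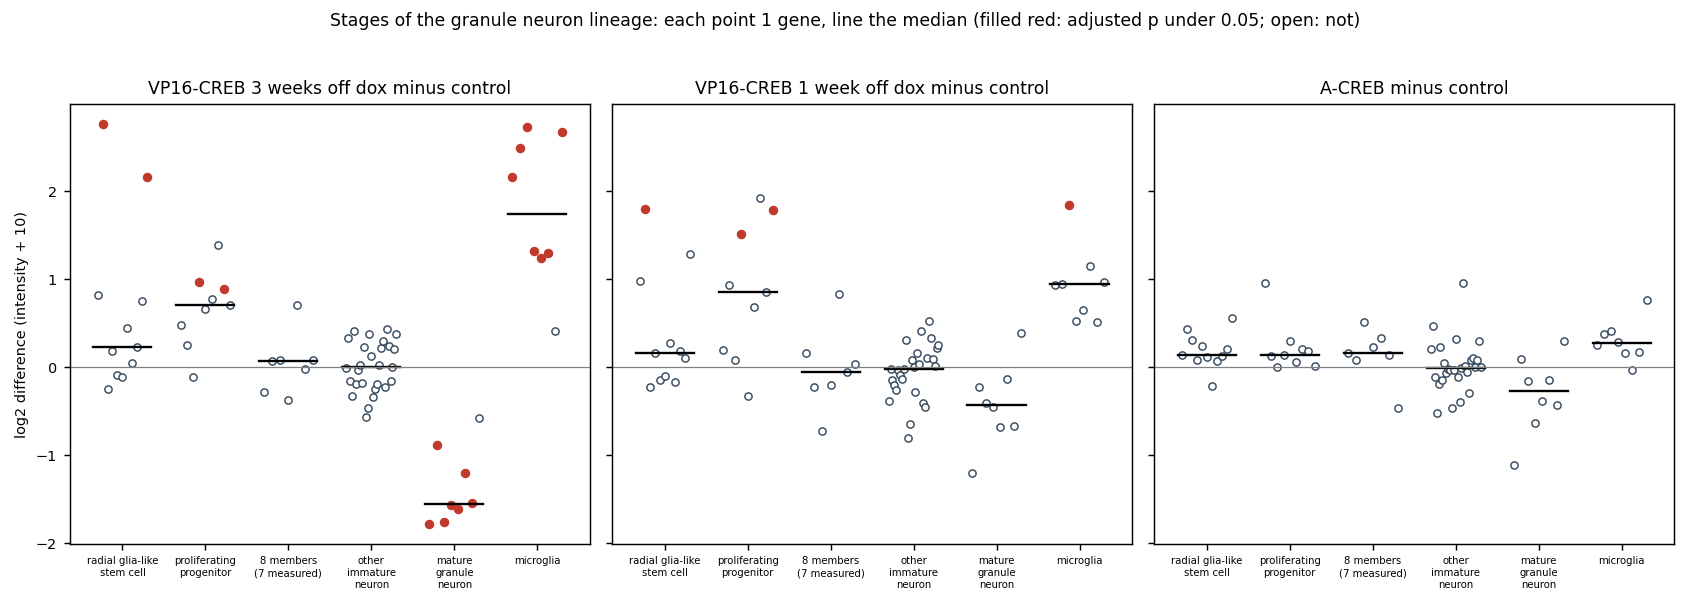
Log2 difference (y axis, log2(intensity + 10) scale) of each measured gene, by its probe set of highest mean, on lists for stages of the granule neuron lineage and for microglia (x axis), in late VP16-CREB, early VP16-CREB and A-CREB pools minus controls; lines are medians and filled red points were called. The members and the other immature neuron genes hold no red point in any panel, while 7 of 8 mature granule neuron genes are red and below 0 in late pools.

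The controls allowed the same genes to be followed from 3 to 6 weeks of age. Age was confounded here with the set of arrays in the VP16-CREB line. Where the 6-week-old controls of the A-CREB line were used instead, it was confounded with line and possibly with dox history. No time off dox is recorded for the A-CREB line. Both comparisons shared the same 2 pools of 3-week-old controls. In the VP16-CREB line Dcx was called higher at 6 weeks with 1 of its 2 tested probe sets, and Eomes and Sox11 (1 of 6 probe sets) were called lower. Of 20 member probe sets 3 were called by limma, 1 higher and 2 lower, where 18% of all probe sets were called (13.7% higher and 4.25% lower). Unadjusted, 2 members were higher and 3 lower, where 20.5% and 10.2% of all probe sets were so (30.6% in all), and the pools did not overlap for 3 that were higher and 6 that were lower, where 29.4% and 20.3% were so. In the A-CREB line 0 members were called, where 0% of all probe sets were called and 5.56% passed an unadjusted p under 0.05 (1504 probe sets). Unadjusted, 8 member probe sets were higher there and 0 lower, where 3.46% and 2.1% of all probe sets were so, and the pools did not overlap for 8 that were higher and 0 that were lower, where 7.82% and 6.64% were so.

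Dcx with 1418141_at had 729, 473 and 687 units in 6-week-old controls of the VP16-CREB line and 465, 542 and 646 in those of the A-CREB line, against 330 and 329 in 3-week-old controls. Every 6-week-old pool of both lines was above both 3-week-old pools. The difference was 0.89 (0.36 to 1.42, limma adjusted p = 0.0229) in the VP16-CREB line and 0.71 (0.18 to 1.24, limma adjusted p = 0.662) in the A-CREB line. With 1418139_at, it had 190, 208 and 261 units in the VP16-CREB line and 314, 345 and 279 in the A-CREB line, against 182 and 244 in 3-week-old controls, differences of 0.05 (-0.33 to 0.42) and 0.54 (0.17 to 0.92, limma adjusted p = 0.613). Of the 2 Dcx probe sets, only the first was called in the VP16-CREB line, and the difference between them was not tested. That call was lost without 1 pool in 4 of 5 cases, at a limma adjusted p of 0.0851 without late control 1, 0.0715 without late control 3, 0.120 without early control 1 and 0.0825 without early control 2. It was also lost with arrays centred on their median, at 0.34 (limma adjusted p = 0.285). Under that centring the other probe set, 1418139_at, was called in the opposite direction, lower at 6 weeks, at -0.50 (limma adjusted p = 0.0433).

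Eomes with 1435172_at had 46.3, 51.5 and 59.7 units in 6-week-old controls of the VP16-CREB line and 67.6, 114 and 105 in those of the A-CREB line, against 138 and 106 in 3-week-old controls. The VP16-CREB line pools were all below both younger pools, and the A-CREB line pools overlapped with them. The difference was -1.07 (-1.75 to -0.39, limma adjusted p = 0.0309) in the VP16-CREB line and -0.34 (-1.02 to 0.34) in the A-CREB line. Sox11 with 1429372_at had 345, 384 and 351 units in 6-week-old controls of the VP16-CREB line and 523, 478 and 574 in those of the A-CREB line, against 480 and 681 in 3-week-old controls. Its difference was -0.66 (-1.11 to -0.20, limma adjusted p = 0.0484) in the VP16-CREB line and -0.13 (-0.58 to 0.33) in the A-CREB line. Leaving out 1 pool ended the Eomes call without late control 1 (0.0909), late control 2 (0.0716), early control 1 (0.225) or early control 2 (0.0556), and the Sox11 call without late control 1 (0.120), 2 (0.0755) or 3 (0.107) or early control 2 (0.305). The Eomes call was also lost without a filter (limma adjusted p = 0.0595) and with array weights (0.0680). The Sox11 call was lost without a filter (0.0935), with a filter on the mean (0.0503) and without the pseudocount (0.0528). Array weights (0.0520) and a fit of only the arrays compared (0.0783) ended the Sox11 call too. With arrays centred on their median, Sox11 1429051_s_at was also called lower, at -0.84 (limma adjusted p = 0.0155), as was 1453002_at, at -1.12 (0.0216). That centring moved the median of all probe sets to -0.48 in this comparison.

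Sox4 and the cytoskeletal genes Tubb3 and Dpysl3 were not called with age on the deposited scale, but some Sox4 and Dpysl3 probe sets were called lower at 6 weeks in the VP16-CREB line under other scalings. Sox4 1449370_at was called with quantile normalization at -1.03 (limma adjusted p = 0.0130) and with arrays centred on their median at -1.10 (0.00623). Centring also called Sox4 1433575_at at -0.82 (0.00215), Dpysl3 1454613_at at -0.74 (0.00953) and Dpysl3 1438789_s_at at -0.94 (0.0339), and the last was called as well without early control 2, at -1.16 (0.00836). The 5 tested Sox4 probe sets differed by -0.56 to 0.45 in the VP16-CREB line and by 0.01 to 0.67 in the A-CREB line. Tubb3 had 1824, 2355 and 1956 units in 6-week-old controls of the VP16-CREB line and 1862, 1660 and 2953 in those of the A-CREB line, against 1528 and 1441 in 3-week-old controls. All 6-week-old pools were above the 3-week-old ones, and the differences were 0.45 (-0.02 to 0.92, limma adjusted p = 0.183) and 0.49 (0.02 to 0.96, limma adjusted p = 0.881). The 3 Dpysl3 probe sets differed by -0.40 to 0.26 in the VP16-CREB line and -0.07 to 0.67 in the A-CREB line, and Neurod1 by 0.16 and 0.34 in the VP16-CREB line and 0.09 and 0.07 in the A-CREB line.

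Both groups of 6-week-old controls, of the VP16-CREB line and of the A-CREB line, were themselves compared. They share age, but not line or set of arrays, and share their pools with the age comparisons. Their dox history may differ too, as no time off dox is recorded for the A-CREB line. Of the 20 members 2 were called lower in the VP16-CREB line and 0 higher, where 3.63% of all probe sets were called lower and 13.9% higher (17.5% in all). Unadjusted, 0 were higher and 9 lower, where 19.5% and 9.48% of all probe sets were so, and the pools did not overlap for 1 that was higher and 8 that were lower, where 22.3% and 12.8% were so. The calls were Sox4 1449370_at, with 116, 109 and 91.8 units in controls of the VP16-CREB line, against 214, 187 and 325 in those of the A-CREB line, a difference of -1.09 (-1.58 to -0.60, limma adjusted p = 0.00361), and Dcx 1418139_at, at -0.50 (-0.84 to -0.16, limma adjusted p = 0.0418). The Dcx call was lost without late control 1 (0.172) or 2 (0.123) or without A-CREB line control 1 (0.0963) or 2 (0.132). It was also lost without a filter (0.0868), with trend and robust variances (0.0617) and with only the arrays compared in the fit (0.120). The median of the members was -0.42, against 0.05 over all probe sets. Scaling moved these 2 comparisons. Centring each array on its median changed the median of all probe sets to -0.48 in the age comparison of the VP16-CREB line, where it had been 0.07, and to -0.48 in the comparison of the controls, where it had been 0.05. The split of calls changed to 2407 higher and 10293 lower, against 3716 and 1150 as deposited, in the first, and to 2581 and 11652, against 3764 and 982, in the second; quantile normalization gave 2597 and 2124 in the first and 2773 and 2177 in the second.

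Beside these age differences, Cd24a (a surface protein of neuroblasts) was called lower at 6 weeks in the VP16-CREB line at -1.27 and Neurod2 (a bHLH factor of maturing neurons) higher at 0.81, the only calls among 27 other immature neuron genes. The Neurod2 call was lost with arrays centred on their median, at 0.26 (limma adjusted p = 0.204). Of 6 choroid plexus genes 5 were called lower, with Otx2 at -3.82, and their sum was 15187 to 37300 in 6-week-old controls of the VP16-CREB line and 34680 to 42994 in 3-week-old controls. Prox1 (the granule neuron factor) was called higher at 0.67, Nes (the intermediate filament nestin) higher at 0.92, and Gpr17 and Mog lower at -0.62 and -0.68. The Prox1 call was lost without early control 1 (0.148), with arrays centred on their median, at 0.13 (0.591), and with quantile normalization, at 0.51 (0.0621). The Nes call was lost without early control 2 (0.0663), with centring, at 0.38 (0.164), and with quantile normalization, at 0.35 (0.267). The Folr1 call, of the choroid plexus list, was lost without early control 1 (0.0862), and the Mog and Gpr17 calls without late control 1 or either early control, Mog also without late control 2. No gene of any list was called in the age comparison of the A-CREB line. The comparison of both groups of 6-week-old controls, where age was the same, shares the 3 late control pools with the age comparison of the VP16-CREB line. In controls of the VP16-CREB line minus those of the A-CREB line, Cd24a was lower at -1.16, Gpr17 at -0.83 and Mog at -0.95, and Prox1 was higher at 0.73 and Neurod2 at 0.52, while Nes differed by 0.51 without a call (limma adjusted p = 0.0817). Of 6 choroid plexus genes 5 were called lower, with Otx2 at -2.87 and Clic6 at -2.86, and their sum was 15187 to 37300 in controls of the VP16-CREB line and 31438 to 43758 in those of the A-CREB line. Sox9, Olig1, Olig2 and Mal were also called lower there, at -0.77, -0.54, -0.69 and -0.78. Centring on the median ended the Prox1 call, at 0.20 (limma adjusted p = 0.334), and put Neurod2 at -0.011. The Neurod2 call was lost without late control 2 or 3 or A-CREB line control 2, at 0.0564 to 0.0641, and the Olig1 call without late control 2 or A-CREB line control 3, at 0.0741 and 0.0547. The Sox9 call was lost without any 1 late control or A-CREB line control 3, and the Olig2 call without any 1 late control or A-CREB line control 2 or 3. The Kcnj13 and Folr1 calls of the choroid plexus list were lost without late control 1 or A-CREB line control 2, and the Folr1 call also without late control 2 or A-CREB line control 3. The part of these other cell types in the members' values was not tested.

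**Figure D5:**
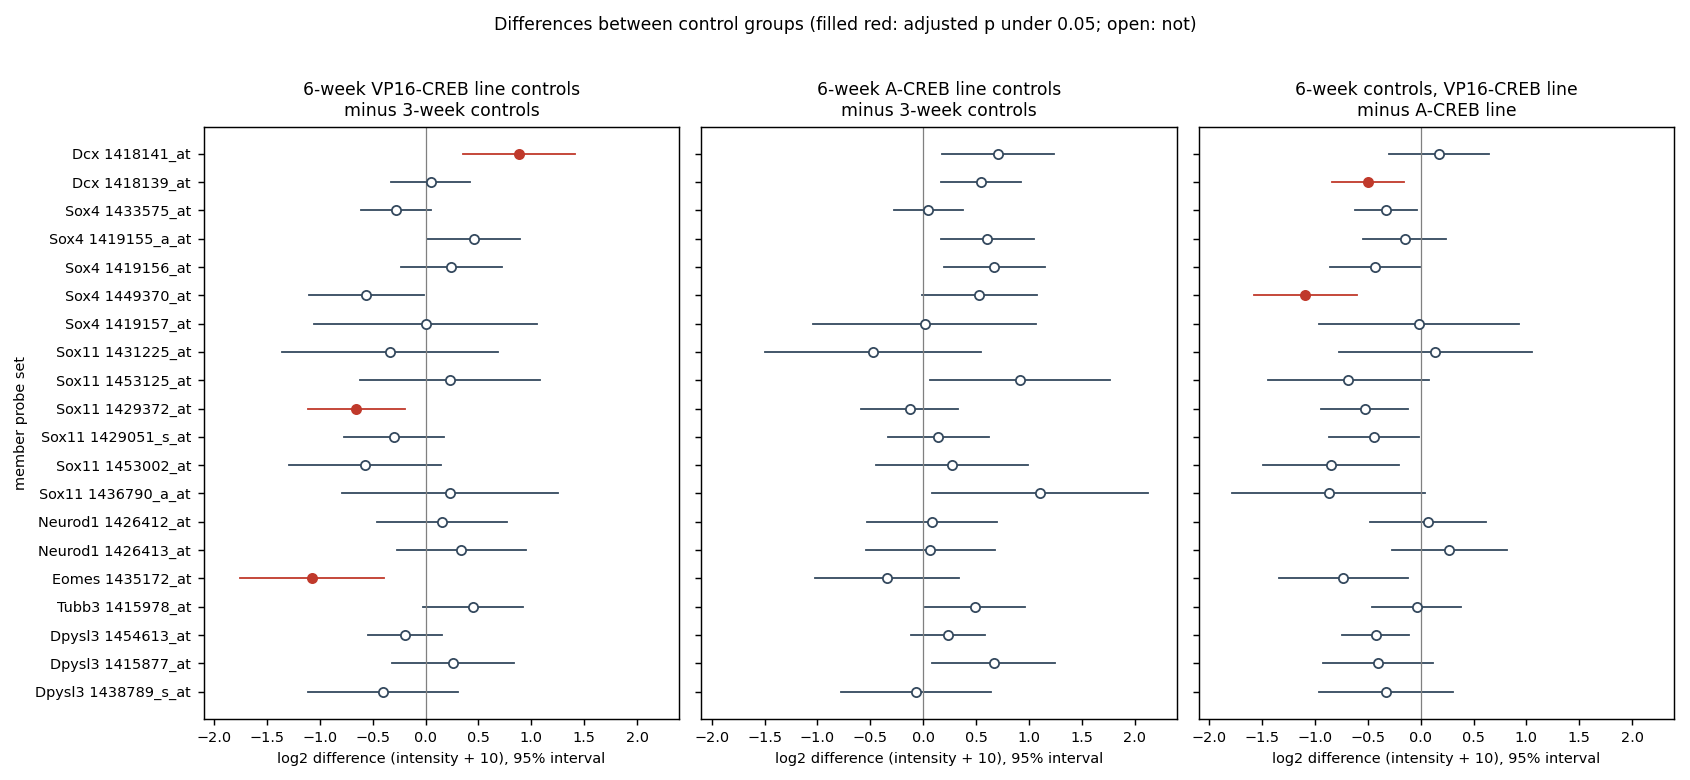
Log2 differences (x axis, log2(intensity + 10) scale) of the 20 tested probe sets (y axis) with 95% intervals between control groups: 6-week-old minus 3-week-old controls in the VP16-CREB line, the same with 6-week-old A-CREB line controls, and VP16-CREB line minus A-CREB line at 6 weeks. Filled red points were called: Dcx, Sox11 and Eomes in the first panel, none in the second, and Dcx and Sox4 in the third.

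Across the 16 arrays, the brightest Dcx probe set had a standard deviation of 0.38 on the log2 scale around its own mean. The genes whose log2 values lay closest to it, by the root mean square distance after centring each on its mean, were Cald1 (caldesmon, an actin-binding protein) at 0.169, Septin7 (a cytoskeletal GTPase) at 0.170, Fam160b1 at 0.171, Rap2b (a small GTPase) at 0.182 and Ccnd2 (cyclin D2) at 0.188. The other tested Dcx probe set lay at 0.383 and the median probe set at 0.508. In the VP16-CREB line Cald1, Septin7 and Rap2b were also higher in 6-week-old than in 3-week-old controls, with differences of 0.84, 0.93 and 1.04 (limma adjusted p = 0.00291, 0.0288 and 0.0432), while Fam160b1 and Ccnd2 differed by 0.73 and 0.55 without a call. The genes were chosen for this likeness to Dcx.

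Igfbpl1 could not be followed. With probe set 1450960_at it had 12.1, 11.2 and 39.8 units in late VP16-CREB pools, against 14.1, 20.4 and 46.3 in controls, 68.3 and 25.6 in early VP16-CREB pools, against 86.9 and 33.6 in controls, and 59.1, 68.3 and 58.3 in A-CREB pools, against 38.8, 64.4 and 51.2 in controls. The other probe set, 1423377_at, lay at 7.10 to 95.7, and neither exceeded 99.1 on any array, so no test was made. The other members that did not pass were 2 Dcx, 3 Sox4 and 1 Eomes probe sets, with highest values of 99.8, 95.8 and 69.0.

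The promoters of the genes that gave the results above were inspected for the binding motif of CREB, and for the E-box bound by bHLH factors such as Neurod1. Windows of 250 bases before the start are from RefSeq (GRCm38.p6), where 6 of the 8 genes have 7 windows and Igfbpl1 and Dpysl3 have none. The windows of Sox11, Neurod1 and Sox4, all on the minus strand, are shown because Sox11 and Neurod1 gave the highest and lowest differences in late VP16-CREB pools and Sox4 is the other SoxC gene. Capitals mark the E-box CANNTG. Sox11 is at chr12:27342719-27342968, Neurod1 at chr2:79456637-79456886 and Sox4 at chr13:28953700-28953949.
Sox11: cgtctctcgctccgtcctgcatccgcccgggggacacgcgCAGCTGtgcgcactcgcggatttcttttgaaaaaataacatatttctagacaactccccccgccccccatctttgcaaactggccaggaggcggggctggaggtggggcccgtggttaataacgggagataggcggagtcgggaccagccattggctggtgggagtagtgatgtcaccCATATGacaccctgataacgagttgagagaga
Neurod1: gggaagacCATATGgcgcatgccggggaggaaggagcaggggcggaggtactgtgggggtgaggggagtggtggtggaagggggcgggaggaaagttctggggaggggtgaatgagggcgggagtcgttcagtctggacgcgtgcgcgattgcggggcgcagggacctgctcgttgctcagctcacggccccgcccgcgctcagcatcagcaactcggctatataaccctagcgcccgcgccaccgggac
Sox4: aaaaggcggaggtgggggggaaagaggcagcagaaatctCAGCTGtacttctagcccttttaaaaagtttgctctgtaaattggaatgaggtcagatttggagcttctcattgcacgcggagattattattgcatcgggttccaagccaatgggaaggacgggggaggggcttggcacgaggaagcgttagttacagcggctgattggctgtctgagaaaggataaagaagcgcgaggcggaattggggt
The full CRE TGACGTCA was in 0 of the 7 windows, where 1.55% of 32817 windows of all genes hold it on either strand, and its shorter form TGACG in 0 of 7, where 17.7% do. The E-box was in 3 of 7, where 66.2% do, with 2 in Sox11 and 1 each in Neurod1 and Sox4. A match is only a description of the letters, and its absence from this window says nothing of CREB binding elsewhere at the gene.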

How the data were processed

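Gene expression was measured in hippocampal RNA pools on 16 arrays in 6 groups. The deposited values are intensities on a linear scale that the authors computed in MAS5 (named, with no version, in the submitters' processing notes). MAS5 subtracts a mismatch signal, so low values are noisy. No other normalization by the authors is given in the sources used here. The mean of each array, with 2% of values trimmed at either end, was 500.002 to 500.003. The deposited values thus already share a common trimmed mean, while their medians differ. The 64 control probe sets were left out, log2(intensity + 10) was used, and probe sets above the median of all values (99.1) on at least 2 arrays were kept, 27044 of 45101 (60%).

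All arrays entered 1 limma model (limma 3.58.1, R 4.3.3; lmFit, eBayes, two-sided; 10 residual and 3.44 prior degrees of freedom) with a coefficient per group, and p-values were adjusted by Benjamini-Hochberg over all probe sets kept. The model was tested on simulated data. For arrays, their number limits the precision.

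Members and lists were chosen with earlier results of these data known. All member probe sets are reported; of each list, counts and up to 4 called genes (or up to 2 of highest mean), each by its probe set of highest mean; and the 5 genes nearest to Dcx. Probe sets were named from the platform annotation (34945 with 1 symbol, 932 with several, 9160 with none). Alternatives changed the pseudocount, filter, scaling, variance model, weights, samples in the fit, the replicate block, and left out each array. Figures were drawn with Python 3.11.15 and matplotlib 3.10.9. Deviations of same-numbered transgenic and control pools correlated at -0.23 to 0.22 in the late comparison and 0.15 in the early one. In the A-CREB comparison they correlated at -0.05, 0.41 and 0.27, against -0.37 to 0.05 for pools of unlike number. Numbers were not taken as pairs in the main model, and the replicate block was run as an alternative.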

Additional observations from a re-analysis of the deposited data

How the results depend on the processing

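Over 3226 values of named probe sets under the alternatives, 3069 stayed on their side of the threshold, and 166 of these, not called either way, changed sign (20 of them with arrays centred on their median). Another 118 lost a call and 37 gained one in the same direction. With that centring 2 changed sign with a call on one side: Neurod2 in 6-week-old controls of the VP16-CREB line minus the A-CREB line, called at 0.52, was -0.011, and Dcx 1418139_at in the age comparison of the VP16-CREB line, not called at 0.05, was called at -0.50. Members called in late VP16-CREB against controls numbered 4 with array weights (Sox11 1429051_s_at, 1429372_at and 1453002_at and Neurod1 1426413_at) and 2 with only the arrays compared in the fit (Sox11 1431225_at, Neurod1 1426413_at), against 0. With an array left out, they stayed at 0. In the age comparison of the VP16-CREB line they were 1 without a filter, 1 with a filter on the mean, 9 with arrays centred on their median and 1 with array weights, against 3, and 0 to 1 with an array left out. Between the control groups of 6 weeks they were 6 with quantile normalization, 15 with centring and 5 with array weights, against 2, and 1 to 2 with an array left out. The causes were not tested. With the replicate block, 0 members were called in late VP16-CREB, early VP16-CREB and A-CREB pools, as without it; over all probe sets the block gave 23 calls in early pools, against 64, and ended the early calls of Gfap, Cdk1 and Cd68. In early pools, A-CREB pools, the age comparison of the A-CREB line and both differences of effects, members called stayed at 0 under every alternative run. Calls over all probe sets ran from 584 to 4137 in late pools (1062 as reported), 0 to 70 in early pools (64), 0 to 4 in A-CREB pools (0), 2458 to 12700 and 0 to 16 in the age comparisons of the VP16-CREB and A-CREB lines (4866 and 0), 2968 to 14233 between the control groups (4746), and 0 to 21 and 114 to 404 in the differences of effects (1 and 240). The 2 or 3 pools per group limit the precision, which the intervals give, and MAS5 values near the filter are the least certain.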
